A study of Homo sapiens with 18 samples.

Results

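The response of LHR+ SKOV-3 cells to their first hour with LH was measured by setting the 3 arrays of LHR+ cells incubated with LH at 50 ng/ml for 1 h (LH1) against the 3 arrays of LHR+ cells without LH. These 6 arrays were taken, by their labels, from a series of 18 Affymetrix Human Genome U133 Plus 2.0 arrays, and every probe set that is not an array control was tested, 54613 in all. SKOV-3 is an established human ovarian carcinoma line. The LHR+ cells, in both groups, carry stably transfected luteinizing hormone receptor (LHR), whereas the LHR- cells, the control of the series, do not express it; whether the transfected line is 1 clone was not stated in the sources used here. The other 9 arrays are LHR+ cells after 4, 8 and 20 h with the same LH concentration, 3 of each, and the 3 LHR- arrays make up the rest. The study calls the 3 replicates of each group independent and does not say whether they were separate cultures. The p-values measure the spread between these arrays. The labels name no vehicle and no incubation time for the LHR+ arrays without LH. Effects of LH and of handling over that hour therefore cannot be told apart.

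LHR is a G-protein coupled receptor that acts mainly through Gs, adenylyl cyclase and cyclic AMP, and in part through phospholipase C. Cyclic AMP frees the catalytic subunits of protein kinase A, which phosphorylate CREB and so switch on genes that hold a cyclic AMP response element. Genes that need no protein synthesis for their induction, the immediate-early genes, respond within the first hour of such signals, and in granulosa and theca cells of the ovary LH uses these steps to start ovulation and the making of steroids.

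The 6 arrays were alike in median intensity and in the 3′ to 5′ ratios of control probe sets. Their median intensity lay between 51.9 and 57.7 in LH1 and between 47.8 and 53.1 in LHR+, the highest being LH1 replicate 2, and each array was nearest to an array of its own group. The ratio of the 3′ to the 5′ GAPDH control probe sets was between 1.44 and 1.65 in LH1 and between 1.52 and 1.63 in LHR+. For ACTB this ratio was higher, between 8.42 and 9.11 in LH1 and between 7.84 and 10.4 in LHR+. The part of this 3′ excess in the results was not tested. Keratin genes KRT7, KRT8, KRT18 and KRT19 were all above an intensity of 500 in both groups, and the summed intensity of 14 epithelial and ovarian carcinoma markers was 24495 to 28284 in LH1 and 25484 to 27501 in LHR+. MUC16 was under 16 in both. Sums of 7 endothelial markers (76.7 to 88.5 in LH1, 55.6 to 72.7 in LHR+) and of 7 leukocyte markers (66.6 to 95.0 in LH1, 38.1 to 66.5 in LHR+) were low, with PTPRC, CD3D and CD14 under 16 in both groups. The sum of 9 fibroblast markers was 13855 to 15822 in LH1 and 13551 to 14719 in LHR+, with COL1A1 and COL1A2 above 500 and COL3A1 and FAP under 16 in both; the part of these in the results was not tested. The single LHCGR probe set, for the receptor itself, was between 0.397 and 0.436 in LH1 and between 0.344 and 1.57 in LHR+. It was at or under 4.11 on every other array, and where its probes lie relative to the transfected cDNA was not tested, so it does not check the labels.

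Few transcripts passed the test after 1 h with LH, and nearly all of those were higher than without LH. A call needed p under 0.05, a Benjamini-Hochberg adjusted p under 0.1 over all probe sets in limma, a change of 2-fold or more, and no overlap between the 3 LH1 and the 3 LHR+ arrays. On simulated data that rule recovered 13 of 50 probe sets changed 2-fold and 26 of 50 changed 3-fold, so it can miss such changes. In the arrays 242 probe sets rose by that rule (0.443% of those tested) and 21 fell (0.0385%). An adjusted p under 0.1 alone was reached by 430 probe sets (0.787%). Of 19752 genes, each read from its brightest probe set, 57 rose (0.289%) and 6 fell (0.0304%). Without the fold threshold, 100 genes were higher in LH1 (0.506%) and 43 lower (0.218%). Non-overlap of the groups alone was common, at 2573 genes (13.0%). The genes that rose had 25 members changed at least 4-fold. Leaving out LH1 replicate 2, the array with the highest median, gave 184 probe sets up and 47 down, and 49 genes up and 12 down. With only the 6 arrays of the comparison in the fit, 30 of the 57 genes that rose and 2 of the 6 that fell kept the call. Among those that lost it were CCL20, FOS, EGR3, HBEGF, MAFF, SPRY4, ID3, CEBPD, AKAP12, SOX9, BCL6, PTGER4, FGFBP1, PAX8-AS1, GNRH1, H3C3, ALKAL2 and LINC02297 (adjusted p between 0.103 and 0.301, limma).

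**Figure D1:**
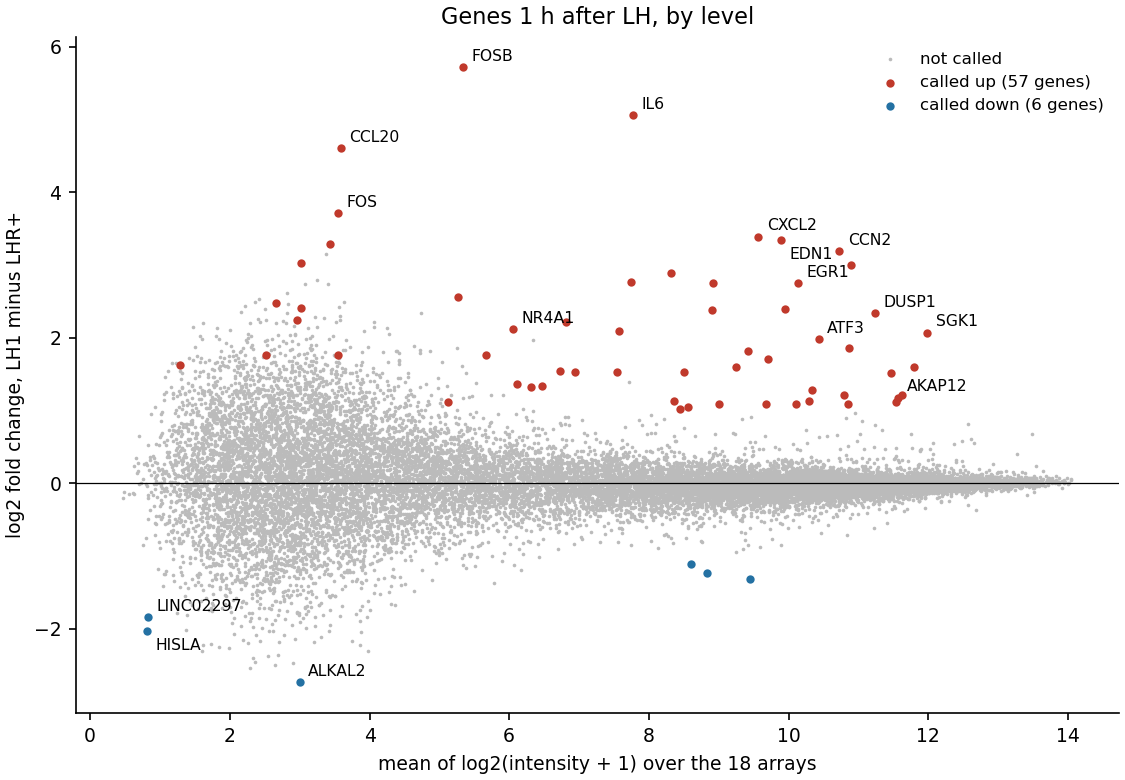
Log2 fold change (LH1 minus LHR+) of 19752 genes, vertical, against the mean of log2(intensity + 1) over the 18 arrays, horizontal; each point is 1 gene read from its brightest probe set. The 57 genes that rose lie between 1.29 and 11.99 on the horizontal axis, with log2 fold changes up to a log2 fold change of 5.71 for FOSB, whereas the 6 that fell reach -2.74 for ALKAL2.

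AP-1 is a dimer of FOS and JUN family proteins, with ATF and MAF proteins as further partners, and 4 of its 12 listed genes rose: FOSB, FOS, ATF3 and MAFF. FOSB, a FOS family subunit, measured 465, 598 and 375 in the LH1 arrays and 11.2, 14.9 and 2.74 in the LHR+ arrays. This was a log2 fold change of 5.71 ± 0.47 (SE; adjusted p = 2.6e-05, limma), the widest of any gene with 1 added before taking logs. With 16 added it was 4.28, below that of IL6 at 4.69. FOS, which is the founding member of the family, measured 66.6, 67.5 and 85.9 in LH1, against 3.24, 11.8 and 2.27 in LHR+. Its log2 fold change was 3.72 ± 0.57 (adjusted p = 0.0066, limma), and 2.06 with 16 added. Fitted on the 6 arrays alone, FOS had an adjusted p of 0.146 (limma). ATF3, a stress-induced repressor and activator of the ATF/CREB family, measured 3193, 3347 and 3573 in LH1 and 798, 931 and 844 in LHR+, a rise of 3.93-fold (adjusted p = 1.31e-07, limma). MAFF, a small MAF protein that pairs with other leucine zipper factors, averaged 2526 ± 527 in LH1 and 1078 ± 67.9 in LHR+ (SD, n = 3 each), a 2.31-fold rise.

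The JUN side of the dimer gave no call. JUN averaged 5824 ± 145 in LH1 and 4972 ± 781 in LHR+ (SD, n = 3 each), with a log2 fold change of 0.24 (adjusted p = 0.798, limma), and none of its 4 probe sets was called. JUNB differed by 0.57 on the log2 scale (adjusted p = 0.41) and JUND by -0.09 (adjusted p = 0.971, limma). FOSL1 and FOSL2, further FOS family members, had log2 fold changes of 0.10 and 0.16 at their brightest probe sets, although 1 of 5 FOSL2 probe sets rose.

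The other immediate-early transcription factors held the most calls of any list, 9 of 22. A log2 fold change above 0 was found in 21 of the 22, and in 9474 of all 19752 genes. Their median was 0.73, against -0.01 over all genes. All lists were written with earlier results of these data known, which partly sets their counts and medians. EGR1, a zinc finger factor induced by growth factors and hormones, measured 10215, 7560 and 11119 in LH1 and 1445, 1368 and 1417 in LHR+. Its brightest probe set rose 6.74-fold (adjusted p = 1.16e-07, limma) and both of the others rose too. EGR3, its paralog, measured 133, 249 and 129 in LH1 and 30.5, 18.7 and 33.8 in LHR+, with LH1 replicate 2 standing above the other 2. The difference was a log2 fold change of 2.56 ± 0.32 (adjusted p = 0.00107, limma). MYC, a driver of growth and ribosome production, measured 2443, 2258 and 2913 in LH1 and 795, 777 and 753 in LHR+, a 3.25-fold rise (adjusted p = 3.09e-05, limma).

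All 3 NR4A genes rose. They encode orphan nuclear receptors that are regulated mainly by their own abundance, and they are known targets of cyclic AMP in steroid-making cells. NR4A2 measured 331, 541 and 335 in LH1 and 43.5, 72.1 and 57.9 in LHR+ (log2 fold change 2.77 ± 0.22, adjusted p = 1.36e-05, limma), and its 3 probe sets all rose. NR4A3 measured 593, 977 and 708 in LH1 and 136, 112 and 189 in LHR+, which is 5.2-fold higher in LH1 (adjusted p = 0.000127, limma). NR4A1 measured 160, 152 and 126 in LH1 and 33.9, 29.7 and 34.9 in LHR+ (log2 fold change 2.12 ± 0.28, adjusted p = 0.00201, limma). For NR4A1 and NR4A2 the brightest probe set has a name ending in _x_at, by which Affymetrix marks probes that can match other transcripts. The other NR4A1 probe sets were not called, with log2 fold changes of 1.32 and -0.43.

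HES1, a repressor best known as a target of Notch, measured 1067, 1211 and 1157 in LH1 and 380, 276 and 323 in LHR+, a rise of 3.52-fold. A dimmer HES1 probe set had a log2 fold change of 0.81 and was not called. ID3, an inhibitor of helix-loop-helix factors and a target of BMP signaling, averaged 649 ± 145 in LH1 and 301 ± 36.9 in LHR+ (SD, n = 3 each; adjusted p = 0.0229, limma). The ID3 call was lost when LH1 replicate 3, LHR+ replicate 2 or LHR+ replicate 3 was left out, with a log2 fold change between 0.94 and 1.27 over the 6 such fits. CEBPD, a leucine zipper factor of inflammatory responses, rose 2.19-fold, and both of its probe sets were called. ETS2 and CSRNP1 were higher with adjusted p of 0.00332 and 0.0606 (limma) but below 2-fold.

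**Figure D2:**
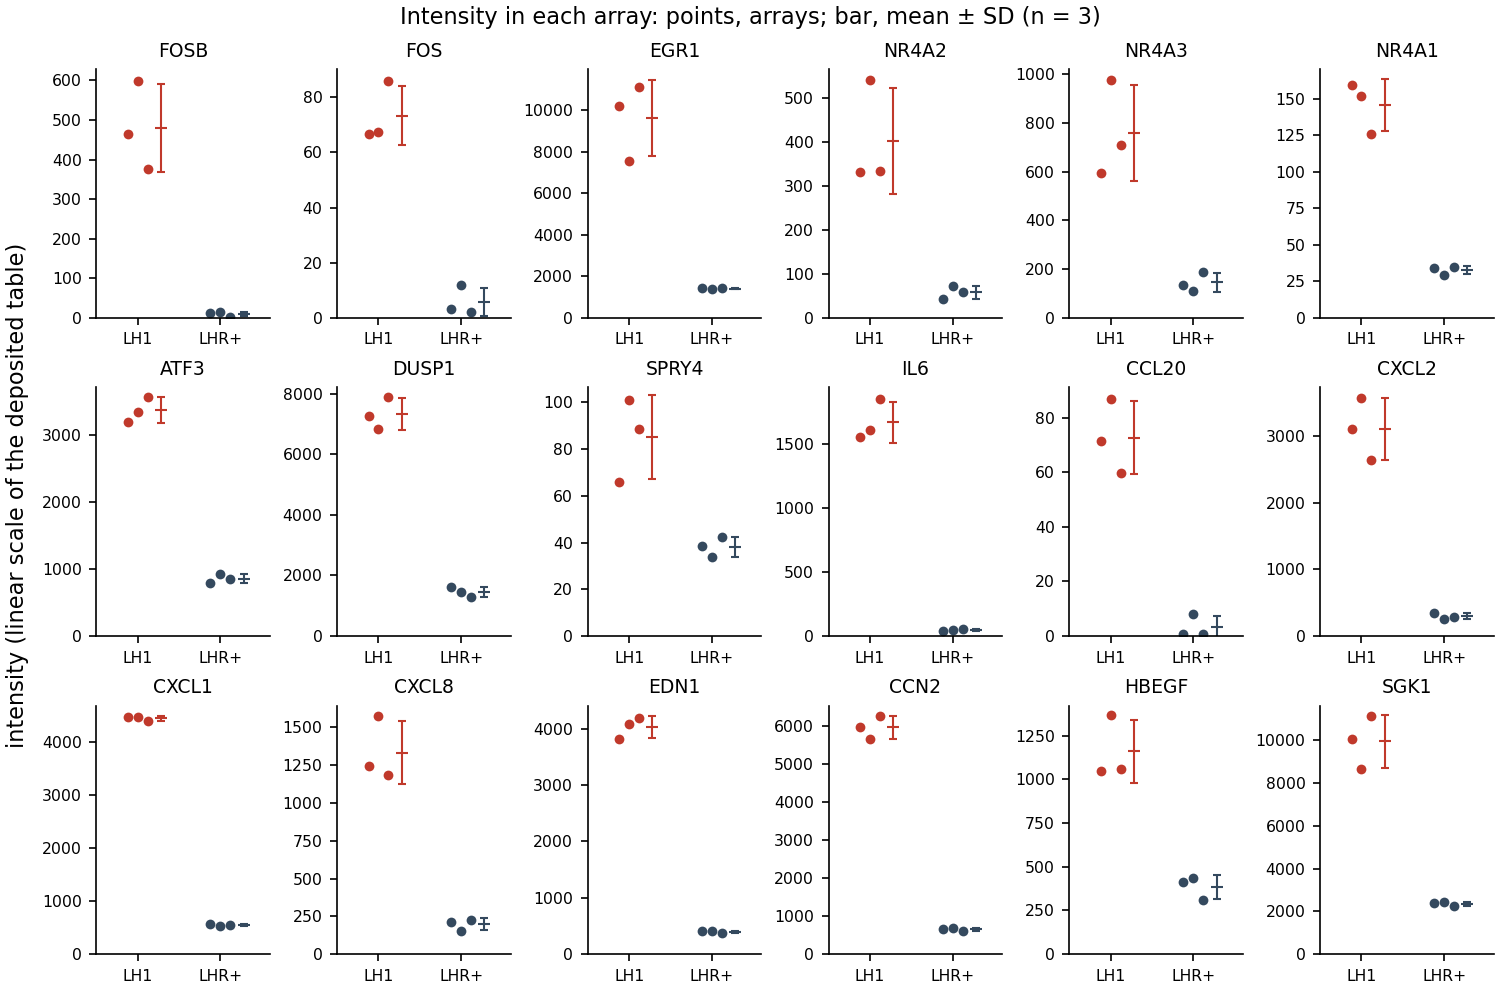
Intensity of 18 genes that rose in each LH1 array (left, red) and each LHR+ array (right, dark), on linear axes from 0 with the scale of the deposited table; the bar is the mean ± SD (n = 3). The groups do not overlap for any gene shown, which the call requires. In FOSB, NR4A2, NR4A3, SPRY4, CCL20, CXCL2, CXCL8 and HBEGF the highest array is LH1 replicate 2, and in the others it is another LH1 array.

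Promoters of the genes that rose show how the recognition sequences of these factors lie near their starts. RefSeq promoter windows of GRCh38.p14, 250 bases before to 50 after a start, were at hand for 42 of the 57 genes that rose (61 windows) and for 4 of the 6 that fell (4 windows). The full palindromic cyclic AMP response element, TGACGTCA, was in 3 of the 61 windows (4.92%), those of DUSP1, CHMP1B and MAFF, and in 1.85% of all 35116 windows. TGACG on either strand, which is part of the full element, was in 20 windows (32.8%), against 24.6% of all windows. The AP-1 motif TGANTCA was in 13.1% against 7.71%. The CArG box bound by serum response factor (CC, 6 of A or T, GG) was in 3.28% against 1.29%. The NF-kB consensus, on either strand, was in 14 windows of 13 genes (23.0%), against 5.91%. These windows are not independent: they include CXCL1, CXCL2 and CXCL3, whose promoters resemble each other, and 2 windows of NFKBIZ. None of these motifs was found in the 4 windows of genes that fell. These shares are a description of letters in short windows and were not tested.

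The 3 promoters with the full element are shown first, as the 250 bases before the start, 5′ to 3′, with the element in capitals. They are DUSP1 (chr5:172771196-172771445, minus strand), CHMP1B (chr18:11851163-11851412, plus strand) and MAFF (chr22:38201744-38201993, plus strand), and the element starts 125, 46 and 54 bases before the start in that order.
DUSP1: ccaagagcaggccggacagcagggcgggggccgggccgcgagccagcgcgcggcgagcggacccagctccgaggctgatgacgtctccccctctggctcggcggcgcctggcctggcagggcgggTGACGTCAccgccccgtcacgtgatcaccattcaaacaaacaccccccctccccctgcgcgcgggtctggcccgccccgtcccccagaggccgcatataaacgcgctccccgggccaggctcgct
CHMP1B: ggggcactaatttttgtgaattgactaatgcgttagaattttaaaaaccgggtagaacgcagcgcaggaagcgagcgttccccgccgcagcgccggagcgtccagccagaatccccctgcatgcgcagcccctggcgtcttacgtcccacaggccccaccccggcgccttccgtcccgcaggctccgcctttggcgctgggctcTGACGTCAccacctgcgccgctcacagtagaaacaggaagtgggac
MAFF: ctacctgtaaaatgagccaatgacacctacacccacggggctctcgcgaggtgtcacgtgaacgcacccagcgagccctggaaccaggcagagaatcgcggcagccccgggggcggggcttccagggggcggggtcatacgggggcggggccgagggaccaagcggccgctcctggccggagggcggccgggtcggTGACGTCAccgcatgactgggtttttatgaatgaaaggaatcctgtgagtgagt

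The 2 genes of largest fold with a window, FOSB (chr19:45467746-45467995, plus strand) and IL6 (chr7:22726950-22727199, plus strand), lack the full element. Capitals mark TGACG on either strand and, in IL6, the NF-kB match, which begins 73 bases before the start.
FOSB: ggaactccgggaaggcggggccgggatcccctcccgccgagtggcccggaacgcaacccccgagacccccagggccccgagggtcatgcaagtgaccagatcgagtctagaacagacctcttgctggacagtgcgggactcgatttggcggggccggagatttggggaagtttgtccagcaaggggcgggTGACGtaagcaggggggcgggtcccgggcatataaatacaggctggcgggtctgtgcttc
IL6: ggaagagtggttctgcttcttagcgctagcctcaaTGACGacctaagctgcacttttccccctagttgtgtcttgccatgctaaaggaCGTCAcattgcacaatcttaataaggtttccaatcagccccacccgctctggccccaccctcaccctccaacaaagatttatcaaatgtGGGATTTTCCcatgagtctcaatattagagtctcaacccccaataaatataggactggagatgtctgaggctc

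Of the genes regarded as targets of CREB in other cells, 5 of 23 rose (FOS, NR4A2, DUSP1, NR4A1 and AKAP12), 10 of 23 were higher with an adjusted p under 0.1 (limma), and none was lower at that threshold. The median log2 fold change of the list was 0.58. AKAP12, which anchors protein kinase A, measured 2255, 3220 and 2305 in LH1 and 1166, 1145 and 1085 in LHR+, a 2.26-fold rise with 3 of its 5 probe sets called. Members that were higher but did not reach 2-fold include RGS2, a brake on Gq signaling (log2 fold change 0.91, adjusted p = 0.00369), BDNF, a neurotrophin (0.89, adjusted p = 0.00643), PDE4D, a cyclic AMP phosphodiesterase (0.73, adjusted p = 0.0169), and SIK1, a kinase that restrains CREB coactivators (0.58, adjusted p = 0.00499, all limma). CREM, another cyclic AMP responsive factor, had a log2 fold change of 0.01, and PTGS2, the prostaglandin synthase of ovulation, averaged 15.1 ± 5.66 in LH1 and 11.9 ± 2.86 in LHR+ (SD, n = 3 each; adjusted p = 0.985, limma).

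None of 46 genes of the signaling chain from the receptor to protein kinase A was called, and their log2 fold changes ran from -0.58 to 1.49 with a median of -0.01. GNAS, the Gs alpha subunit, had a log2 fold change of -0.01, PRKACA, a catalytic subunit of protein kinase A, one of 0.23 (adjusted p = 0.668), and CREB1 one of -0.07 (limma). None of 22 phosphodiesterases and none of 18 RGS genes was called. PDE4B, which breaks down cyclic AMP, measured 22.2, 51.4 and 11.4 in LH1 and 2.08, 15.3 and 1.31 in LHR+. Its groups overlapped, and its log2 fold change of 2.34 ± 0.61 had an adjusted p of 0.172 (limma). Leaving out LHR+ replicate 2 gave a log2 fold change of 3.21 and a call.

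Feedback regulators of MAP kinases gave 4 calls among 20 genes. DUSP1, a phosphatase that switches off p38 and JNK, measured 7252, 6834 and 7875 in LH1 and 1621, 1440 and 1296 in LHR+, 5.05-fold higher in LH1 (adjusted p = 1.72e-06, limma). DUSP5, a nuclear phosphatase for ERK, measured 4188, 4102 and 4163 in LH1 and 812, 766 and 799 in LHR+ (5.23-fold, adjusted p = 3.06e-07, limma). The call itself requires that all LH1 arrays lie above all LHR+ arrays, as they did for both phosphatases. SPRY2 and SPRY4, inhibitors of receptor tyrosine kinase signaling, rose 2.88-fold and 2.18-fold. SPRY4 averaged 85.1 ± 17.8 in LH1 and 38.1 ± 4.24 in LHR+ (SD, n = 3 each), and its call was lost when LH1 replicate 2 or 3 or any 1 LHR+ array was left out (adjusted p between 0.0918 and 0.296 over the 6 fits, limma). DUSP4 and DUSP6 had log2 fold changes of 0.64 and 0.80 at their brightest probe sets and were not called.

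Chemokines and cytokines gave 6 calls among 30 genes, all upward, with a median log2 fold change of 0.44. IL6, an inflammatory cytokine that is also secreted by ovarian carcinomas, measured 1550, 1606 and 1849 in LH1 and 41, 50.3 and 57 in LHR+. The rise was 33.3-fold (log2 fold change 5.06 ± 0.19, adjusted p = 7.87e-09, limma), and every LH1 array was far above every LHR+ array. CCL20, a ligand of CCR6 on lymphocytes and dendritic cells, measured 71.6, 86.7 and 59.8 in LH1 and 0.716, 8.11 and 0.732 in LHR+ (log2 fold change 4.60 ± 0.66, adjusted p = 0.00401, limma). With so low an intensity in LHR+, the fold of CCL20 depends on the constant added before taking logs: with 16 in place of 1 its log2 fold change was 2.22.

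CXCL1, CXCL2, CXCL3 and CXCL8, ligands of the neutrophil receptor CXCR2 encoded near each other on chromosome 4, all rose. CXCL1 measured 4479, 4470 and 4401 in LH1 and 572, 540 and 548 in LHR+ (8.03-fold, adjusted p = 4.33e-09, limma). CXCL2 measured 3112, 3571 and 2650 in LH1 and 347, 256 and 285 in LHR+, a 10.5-fold difference. CXCL3 averaged 1052 ± 115 in LH1 and 143 ± 28.1 in LHR+ (SD, n = 3 each), and CXCL8 averaged 1332 ± 210 in LH1 and 198 ± 39.7 in LHR+. The brightest probe sets of CXCL2 and CXCL8 are _x_at sets, and the CXCL1 to CXCL3 transcripts resemble each other, so a share of each value may come from its paralogs. Other chemokine genes of the same stretch were not called: PF4V1 differed by 1.02 on the log2 scale (adjusted p = 0.13, limma), and CXCL5, CXCL6, PF4 and PPBP were at or under an average of 12.3 in both groups.

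The 120 bases before the start of CXCL1, CXCL2 and CXCL3 are set side by side because each holds 1 stretch that matches the NF-kB consensus, in capitals, made of overlapping matches. They are from chr4:73869273-73869392 (plus strand), chr4:74099196-74099315 (minus strand) and chr4:74038690-74038809 (minus strand) of GRCh38.p14. The stretch begins 79, 78 and 79 bases before the start in that order. Counted position by position without gaps, 109 of 120 positions are identical between CXCL3 and CXCL1. The same count is 81 between CXCL2 and CXCL1, and 74 between CXCL3 and CXCL2. With no gap allowed, part of CXCL2 is compared out of register, which lowers its counts, so they do not measure how far it has diverged. These 3 were chosen after their values were seen.
CXCL1: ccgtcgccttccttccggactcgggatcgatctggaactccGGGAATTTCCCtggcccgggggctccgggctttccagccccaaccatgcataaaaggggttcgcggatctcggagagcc
CXCL2: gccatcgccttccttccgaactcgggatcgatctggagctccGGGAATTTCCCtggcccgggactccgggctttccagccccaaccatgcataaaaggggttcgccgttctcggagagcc
CXCL3: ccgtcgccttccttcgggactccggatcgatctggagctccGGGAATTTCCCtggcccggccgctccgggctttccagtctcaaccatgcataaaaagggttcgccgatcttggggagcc

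NF-kB, the factor that binds this sequence, drives its own inhibitors, and among 18 such feedback and target genes 1 rose. NFKBIZ, an atypical nuclear IkB protein that is needed for part of the IL6 response in other cells, measured 3272, 3889 and 3504 in LH1 and 1084, 986 and 885 in LHR+, a 3.61-fold rise with both probe sets called (adjusted p = 4.2e-07, limma). NFKBIA, the classical IkB inhibitor, went the other way, at 240 ± 23.7 in LH1 and 422 ± 19.6 in LHR+ (SD, n = 3 each). Its log2 fold change was -0.82 (adjusted p = 0.016, limma), short of 2-fold. TNFAIP3, which ends NF-kB signaling, differed by 0.36 on the log2 scale (adjusted p = 0.848, limma). TNF and IL1B, inducers of NF-kB, averaged 28.3 ± 7.2 and 20.2 ± 5.12 in LH1 and 21.7 ± 9.75 and 9.84 ± 6.7 in LHR+, and neither was called.

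Secreted and surface factors of other classes also rose. EDN1, the precursor of the vasoconstrictor endothelin-1, measured 3815, 4081 and 4182 in LH1 and 404, 411 and 375 in LHR+, and its 3 probe sets rose by 2.40 to 3.34 on the log2 scale (adjusted p = 1.28e-08 for the brightest, limma). It was the only call among 26 other growth factors and vasoactive peptides. HBEGF, a ligand of the EGF receptor, measured 1049, 1368 and 1061 in LH1 and 410, 437 and 309 in LHR+ (3.01-fold, adjusted p = 0.000799, limma). Only 2 of its 4 probe sets rose, and a dim one had a log2 fold change of -0.26. Over 19 alternative runs the HBEGF call was lost in 3, and its lowest log2 fold change was 0.74. Of the EGF-like ligands known from ovulation, EREG was under 10 on average in both groups and was not called. CCN2 and CCN1, matricellular proteins and targets of YAP, rose 9.15-fold and 2.85-fold. CCN2 measured 5968, 5667 and 6250 in LH1 and 658, 687 and 607 in LHR+, with little spread in either group (adjusted p = 7.87e-09, limma). ANKRD1, also a YAP target, averaged 783 ± 39.2 in LH1 and 302 ± 66 in LHR+ without reaching the threshold (adjusted p = 0.144, limma). It was called with 16 added before taking logs (adjusted p = 0.0273), among probe sets above the median level and with either variance trend, and the other 13 of the 16 listed genes were not called.

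SGK1, a kinase related to AKT that responds to steroids and osmotic stress, measured 10058, 8665 and 11119 in LH1 and 2392, 2417 and 2263 in LHR+ (4.2-fold, adjusted p = 1.31e-07, limma). It was the 1 call among 21 genes of mRNA decay, growth arrest and stress. KLF6, a Krueppel-like factor, differed by 0.56 on the log2 scale (adjusted p = 0.00467, limma), and KLF4 and KLF10 had -0.11 and -0.21.

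The 33 gene lists held 615 measured genes, of which 30 rose and 0 fell, against 57 and 6 of all 19752 genes, by limma with the rule above. Since the lists were written with earlier results of these data known, that choice partly sets the difference, which was not tested. Many lists had no call in either direction. Genes of the ovulatory program (0 of 19) and of steroid synthesis (0 of 14) are induced by LH in granulosa cells, and here STAR, which carries cholesterol into mitochondria, averaged 18.0 ± 1.07 in LH1 and 16.9 ± 10.7 in LHR+ (SD, n = 3 each), while PGR was under 10 on average in both groups. Circadian clock genes (0 of 17), interferon-stimulated genes (0 of 17), the BCL2 family (0 of 15) and ribosomal proteins (0 of 22) gave none. Among 24 genes of G2/M and mitosis no gene was called either. Of these, 23 had a log2 fold change below 0, with a median of -0.10 and a lowest value of -0.32. Over all 19752 genes 9474 were above 0, with a median of -0.01, and the difference was not tested. KIF11, a mitotic kinesin, averaged 2202 ± 152 in LH1 and 2385 ± 15.9 in LHR+ (adjusted p = 0.922, limma).

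**Figure D3:**
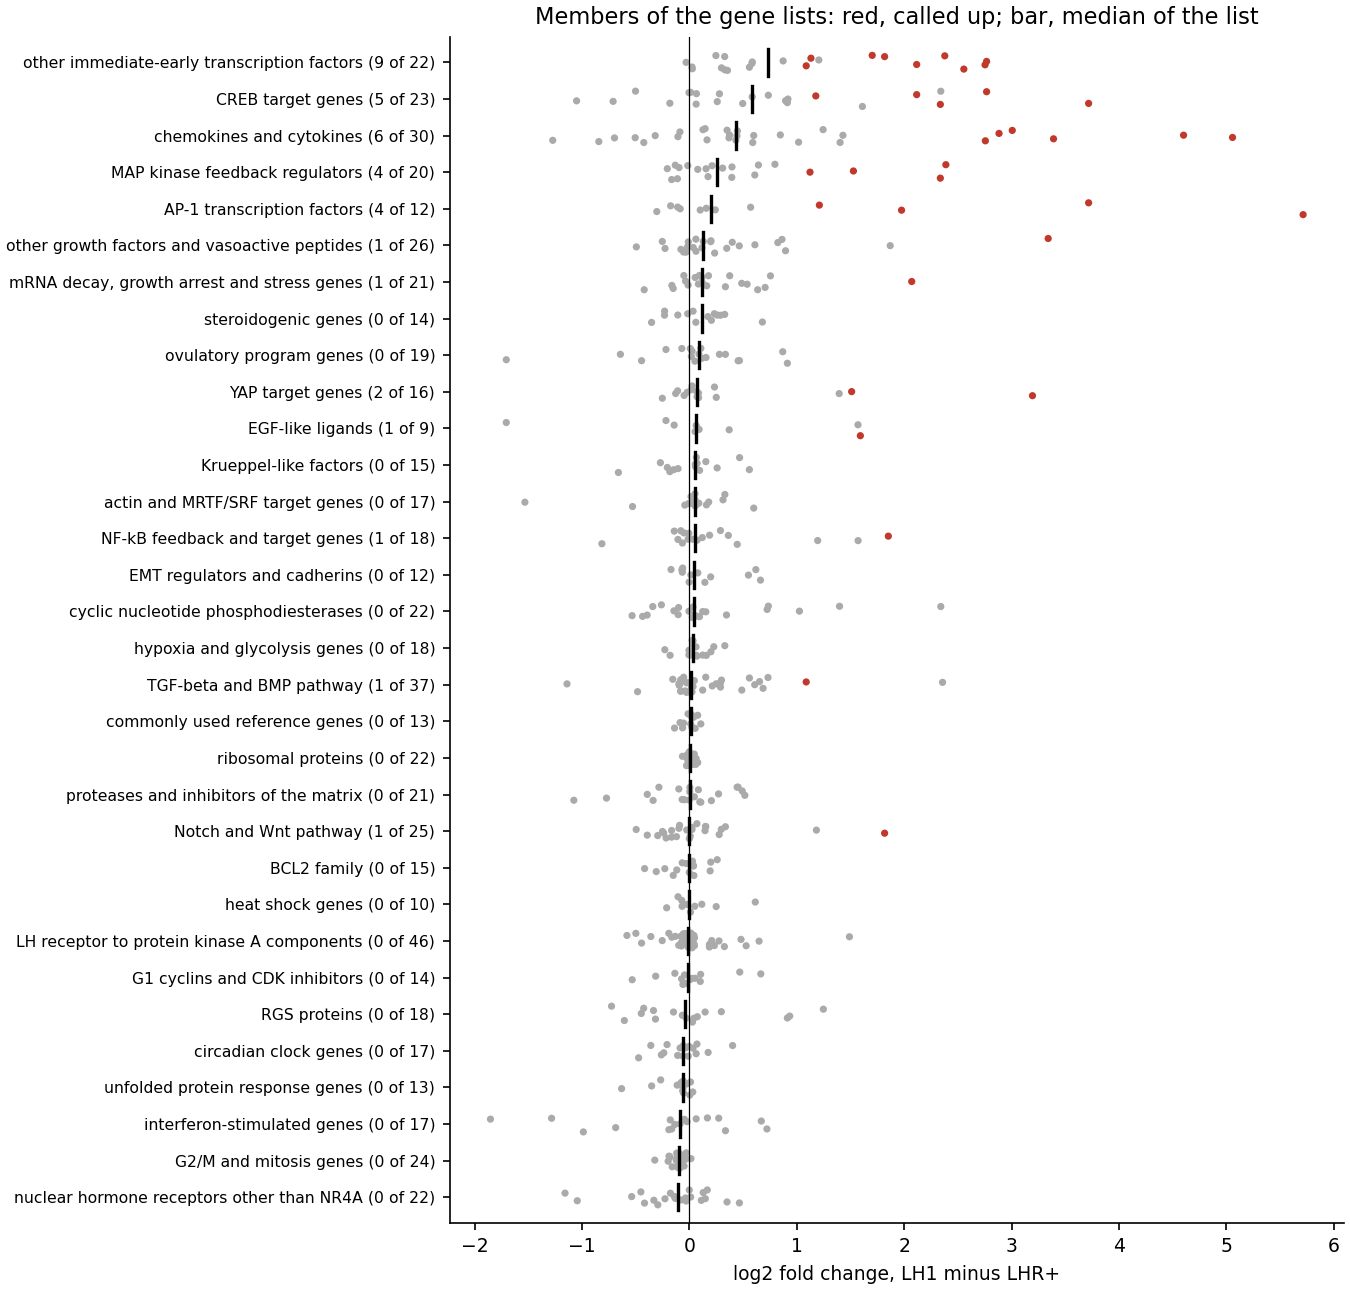
Log2 fold change (LH1 minus LHR+, horizontal) of the measured members of the gene lists, 1 list per row and 1 list left out, with the number of members that rose and the number measured; red points rose, grey points were not called, and the bar is the median of the list. The highest medians are those of the immediate-early factors at 0.73, the CREB targets at 0.58 and the chemokines and cytokines at 0.44. The lists were written with earlier results of these data known.

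Genes outside the lists made up 27 of the 57 that rose, and those named here beyond the naming rule were picked after their values were seen. PRDM1, a transcriptional repressor that takes part in lymphocyte and germ cell differentiation, measured 405, 524 and 337 in LH1 and 118, 75.5 and 99.9 in LHR+ (4.28-fold, adjusted p = 3.86e-05, limma). BCL6, another zinc finger repressor, rose 2.13-fold, and its call was lost without LH1 replicate 2 (log2 fold change 0.97). CD274, the immune checkpoint ligand PD-L1, measured 193, 212 and 216 in LH1 and 75.7, 68.8 and 69.4 in LHR+, a rise of 2.87-fold (adjusted p = 0.00256, limma). SOX9, a factor of gonad and cartilage development, rose 2.91-fold, though without LHR+ replicate 2 its adjusted p was 0.101 (limma). PTGER4, the prostaglandin E2 receptor that couples to Gs, measured 230, 282 and 188 in LH1 and 99.4, 99.1 and 78.8 in LHR+ (2.49-fold). Its other probe set, under 10 on every one of the 6 arrays, had a log2 fold change of -1.16 and was not called, and the mean of both gave 0.08 (adjusted p = 0.995, limma). PPP1R3B, a glycogen-targeting subunit of protein phosphatase 1, averaged 4838 ± 25.8 in LH1 and 2106 ± 210 in LHR+ (SD, n = 3 each). TCIM, known as a positive regulator of Wnt signaling, averaged 4918 ± 255 in LH1 and 1622 ± 87.5 in LHR+. Only 1 of 3 probe sets rose for PRDM1 and for BCL6, 1 of 2 for CD274 and for SOX9, and 2 of 3 for PPP1R3B.

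Some of the genes that rose were dim. Of the 57, 11 averaged under 16 in LHR+. PRAMEF10, of a testis-expressed gene family, measured 15.5, 16.3 and 25.4 in LH1 and 1.52, 0.851 and 0.762 in LHR+, and MARCHF10-DT, a long noncoding RNA, 9.46, 9.15 and 32.1 in LH1 and 0.769, 0.391 and 1.66 in LHR+. In the LHR- arrays the same probe sets averaged 11.2 and 7.58. The MARCHF10-DT call was lost when any 1 array other than LH1 replicate 2 was left out (adjusted p between 0.098 and 0.265 over the 6 fits, limma). Of the genes that rose, 6 are annotated as long noncoding RNAs, among them PAX8-AS1, at 365 ± 79.6 in LH1 and 79.0 ± 24.1 in LHR+ (SD, n = 3 each). Leaving out 1 array at a time kept the call of 42 of the 57 genes in all 6 fits. The 15 others were MARCHF10-DT, SPRY4, ID3, ENC1, SOX9, BCL6, FGFBP1, MSX2, ARMCX1, ABCC11, C11orf96, YOD1, IQCF6, FUT8-AS1 and PDE7B-AS1, and ARMCX1 and ABCC11 lost it in every such fit.

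The genes that fell were few. GNRH1, the precursor of gonadotropin-releasing hormone, measured 374, 214 and 298 in LH1 and 669, 740 and 742 in LHR+ (log2 fold change -1.31 ± 0.19, adjusted p = 0.00402, limma). H3C3, a histone H3 gene, measured 331, 324 and 304 in LH1 and 834, 508 and 783 in LHR+. Its log2 fold change was -1.11 (adjusted p = 0.0207, limma), and the call was lost without LHR+ replicate 1 or 3, at -0.98 the smaller value. LINC01355, a long noncoding RNA, measured 183, 230 and 183 in LH1 and 484, 479 and 434 in LHR+ (adjusted p = 0.000324, limma). The remaining 3 were dim. ALKAL2, a ligand of the receptor kinases ALK and LTK, measured 2.84, 4.54 and 0.849 in LH1 and 14.0, 28.8 and 24.8 in LHR+. HISLA and LINC02297, long noncoding RNAs, averaged 0.342 and 0.234 in LH1 and 4.39 and 3.80 in LHR+, near the lowest intensity in the table, 0.0317. The call of ALKAL2 was lost without LH1 replicate 1 or 3 or LHR+ replicate 2 or 3 (adjusted p up to 0.29), and that of LINC02297 without any LH1 array or LHR+ replicate 1 or 2 (up to 0.239, limma).

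Probe sets of 1 gene often disagreed. Of the 242 probe sets that rose, 57 were the brightest of their gene, 97 were dimmer ones and 88 carried no symbol or several. The last kind made up 36.4% of the rising probe sets and 24.8% of all tested, and the share was not tested. Among the rising probe sets of the later times, each set against the same LHR+ arrays, it was 21.6% at 4 h, 23.3% at 8 h and 25.6% at 20 h. In all 121 genes had a rising probe set, and in 64 of these the brightest one was not called. In 53 of the 64 the brightest probe set had a log2 fold change within 0.5 of 0, and the median of the 64 was 0.03. What part of the transcript each probe set covers was not tested.

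TM4SF1, a tetraspanin-like surface protein of carcinomas, had the widest such difference. Its brightest probe set measured 10859, 9750 and 11676 in LH1 and 6646, 5926 and 7748 in LHR+, a log2 fold change of 0.67 (adjusted p = 0.00992, limma). The other 4 all rose, and the most changed of them measured 222, 236 and 224 in LH1 and 10.4, 1.48 and 12.3 in LHR+ (log2 fold change 4.98 ± 0.55). EGR1 showed the same order, with log2 fold changes of 2.75 for the brightest and 5.84 for the dimmest of its 3 probe sets. THBS1, the matrix protein thrombospondin 1, had 3 of 7 probe sets up, between 1.44 and 1.97 on the log2 scale, whereas the brightest gave 0.46 (adjusted p = 0.564, limma).

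ETS2 had a probe set at 510, 450 and 533 in LH1 and 105, 38.1 and 73.1 in LHR+ (log2 fold change 2.88), against 0.58 at its brightest. CALD1, the actin-binding protein caldesmon, had 11 probe sets. A dim one measured 141, 145 and 140 in LH1 and 26.8, 13.7 and 19.8 in LHR+, a log2 fold change of 2.81 ± 0.25 (adjusted p = 4.47e-05, limma), while the brightest gave -0.04. HMGA2 and ATE1 each had 1 rising probe set, at 2.36 and 2.98, and brightest ones at -0.27 and -0.07. In FBXO32, a ubiquitin ligase subunit, 1 dim probe set of 7 fell (-2.63) and the brightest gave -0.10. Of the 36 genes that rose and have several probe sets, all probe sets rose in 9.

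**Figure D4:**
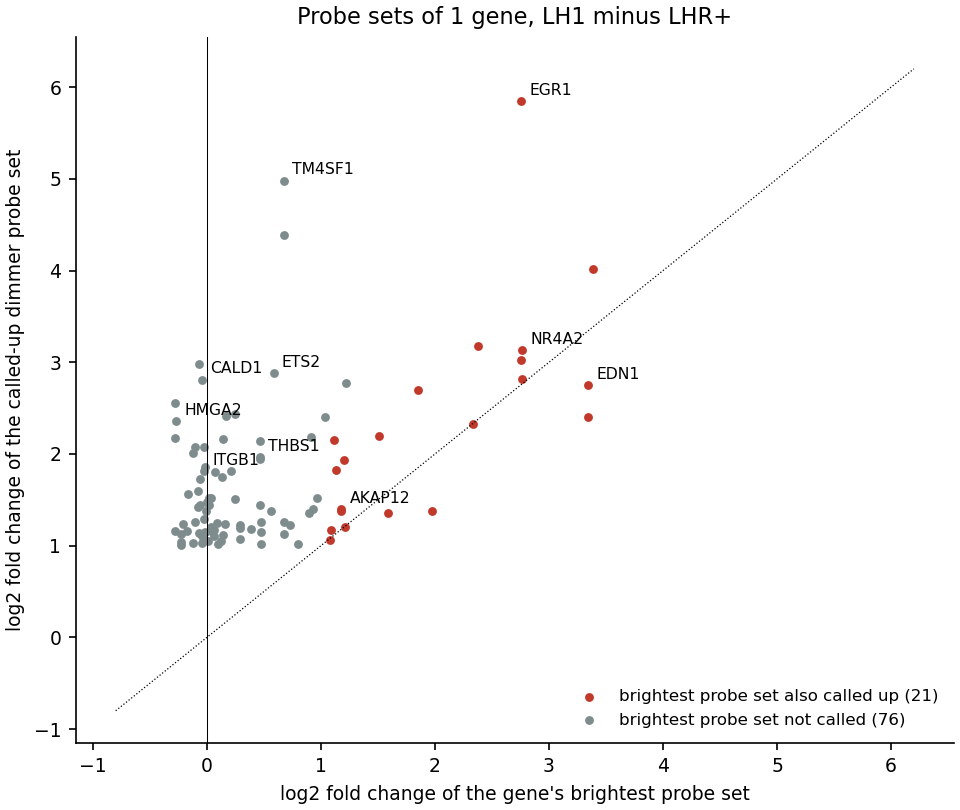
Log2 fold change (LH1 minus LHR+) of the 97 rising probe sets that are not the brightest of their gene, vertical, against that of the brightest probe set of the same gene, horizontal; red, the brightest also rose (21), grey, it was not called (76). The dotted line marks equal change, and most grey points lie near 0 on the horizontal axis and above 1 on the vertical one.

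The later arrays show how long the 1 h differences lasted. Since LH1 arrays chose the genes, a lower value at 4 h is partly set by that choice; LH4 minus LH1 was tested in the same fit with the same rule, by which 156 of all genes fell between 1 and 4 h (0.79%) and 145 rose (0.734%). Of the 57 genes up at 1 h, 19 were called lower in LH4 than in LH1 and 6 higher, and 41 had a lower mean. EGR1 averaged 1410 in LHR+, then 9631 after 1 h, 380 after 4 h, 302 after 8 h and 515 after 20 h, and its LH4 minus LH1 difference was -4.64 on the log2 scale (adjusted p = 5.38e-10, limma). FOS averaged 5.76 without LH, 73.3 at 1 h and 3.72 at 4 h. EGR3, MYC, SPRY2, CCN1 and HES1 likewise were lower at 4 h by the test, and DUSP1 averaged 2274 at 4 h and 3011 at 20 h.

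Other genes stayed near their 1 h level at 4 h or went beyond it. IL6 averaged 1163 ± 106 at 4 h, against 1668 ± 159 at 1 h (SD, n = 3 each), a log2 difference of -0.52 (adjusted p = 0.209, limma), and 243 at 8 h. CXCL8 and NR4A1 had log2 differences of -0.34 each, and SGK1 one of -0.36, all short of a call. NR4A3 was higher at 4 h, 3721 ± 166 at 4 h against 759 ± 197 at 1 h (log2 difference 2.32, adjusted p = 6.64e-05, limma). ID3, at 1912 ± 360 at 4 h, and AKAP12, at 5943 ± 172, were also called higher in LH4 than in LH1. FGFBP1, a carrier of fibroblast growth factors that rose 2.18-fold at 1 h, averaged 1367 ± 75.7 at 4 h and 212 ± 60.8 at 1 h, although its 1 h call was lost without LH1 replicate 2 (log2 fold change 0.91).

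**Figure D5:**
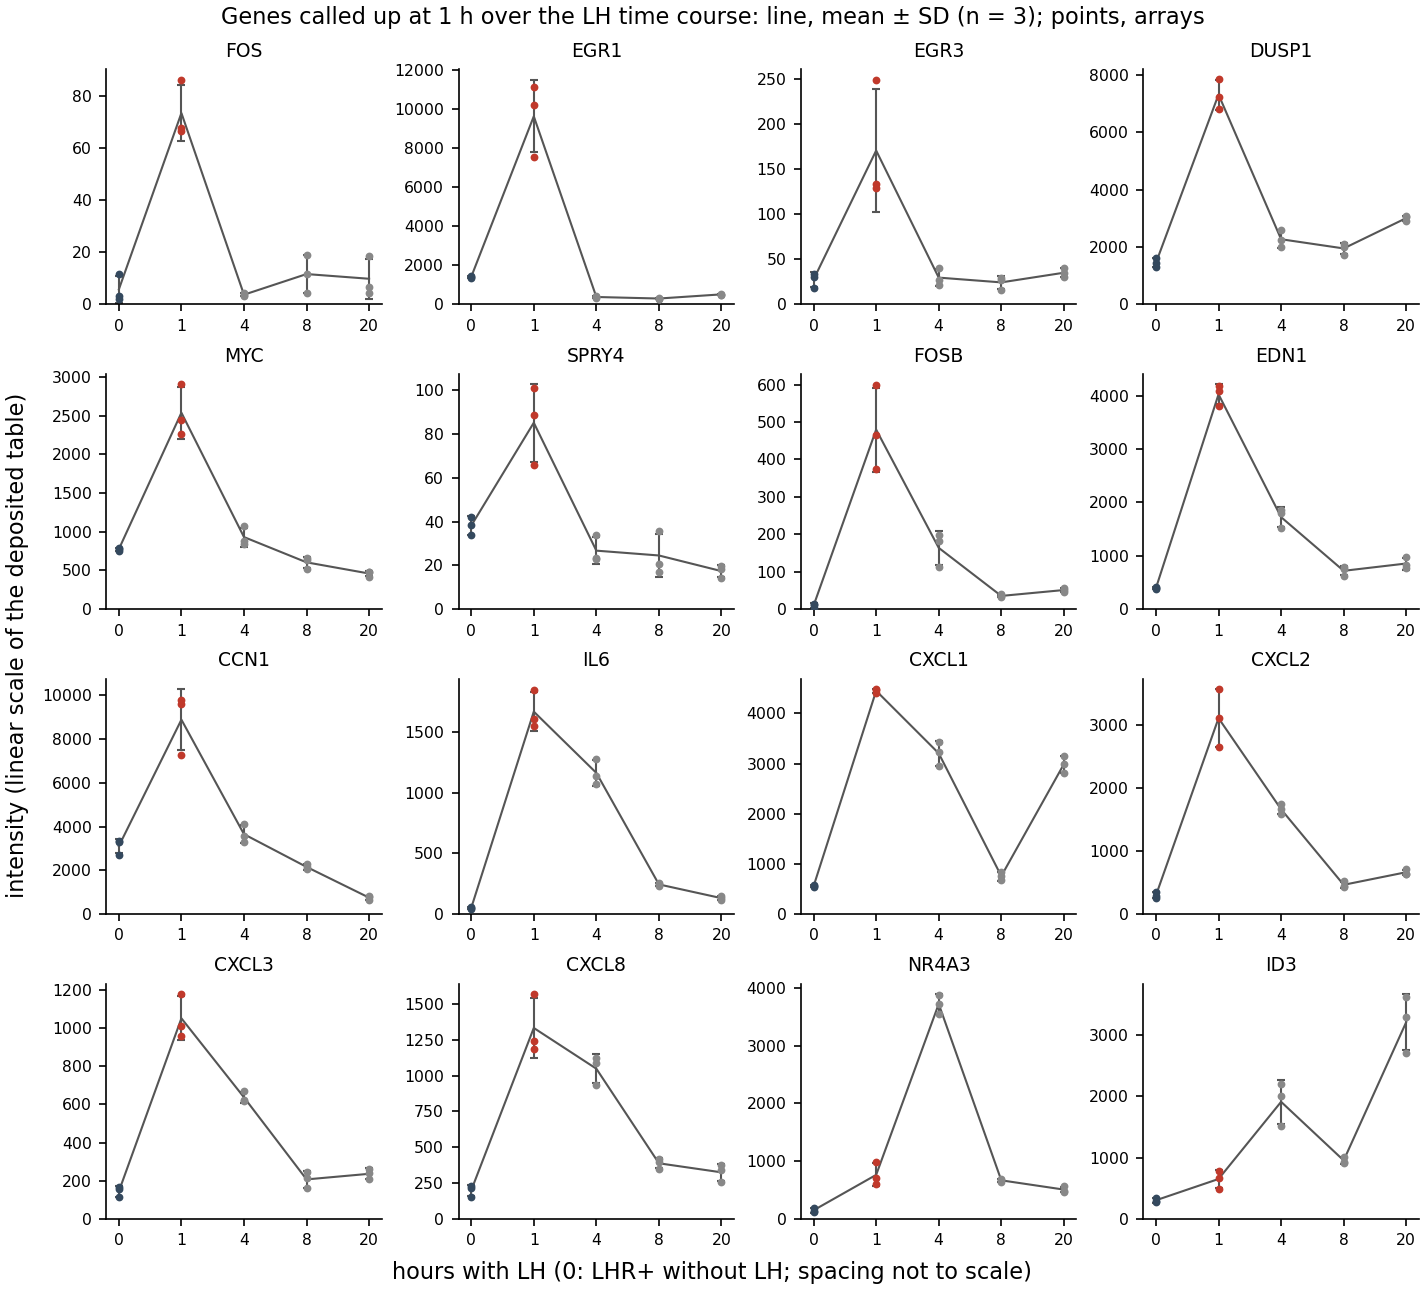
Intensity (vertical, linear from 0) of 16 genes that rose at 1 h, in LHR+ cells without LH (0) and after 1, 4, 8 and 20 h with LH (horizontal, not to scale); points are arrays, the line joins means and bars are SD (n = 3). EGR1 is below the level without LH at 4 h, the FOS and EGR3 arrays at 4 h overlap those without LH, IL6 and the CXCL genes remain above it, and NR4A3 peaks at 4 h.

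The LHR- cells give another level without LH. The genes that rose were chosen by their LH1 arrays, which partly sets how many of them exceed the LHR- arrays. The share over all genes was not counted. Of the 57 genes that rose, 46 had all 3 LH1 arrays above all 3 LHR- arrays. The exceptions include HES1, at 1145 ± 73 in LH1, 326 ± 52 in LHR+ and 1325 on average in LHR-, and PRDM1, at 422 ± 94.5 in LH1, 97.9 ± 21.5 in LHR+ and 456 in LHR-. CXCL1 averaged 4450 in LH1, 553 in LHR+ and 2678 in LHR-. CCN2 averaged 5962 in LH1, 651 in LHR+ and 1939 in LHR-. For IL6, EDN1, DUSP1 and DUSP5 the levels without LH were, on average, 49.4, 397, 1453 and 793 in LHR+ and 35.1, 452, 1461 and 675 in LHR-. LHR- cells were not incubated with LH in these arrays, so what LH does without the receptor was not measured.

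Some genes that the study names, several of them for later times, were not called at 1 h. CXCL12, a stromal chemokine, measured 1.56, 28.9 and 4.30 in LH1 and 1.67, 12.6 and 2.28 in LHR+, and CCL2, a monocyte chemokine, averaged 22.3 ± 6.98 in LH1 and 17.2 ± 5.0 in LHR+ (SD, n = 3 each). TNFSF10, the death ligand TRAIL, averaged 16.3 ± 2.71 in LH1 and 14.4 ± 8.46 in LHR+ (adjusted p = 0.972, limma). The groups overlapped for all 3. VAV3 had a log2 fold change of -0.15, and PPP1R15A, a stress-induced phosphatase subunit, one of 0.16 (adjusted p = 0.963, limma).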

How the data were processed

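RNA for 18 arrays, 3 in each of 6 groups by their labels, was amplified, biotin-labelled and hybridized to U133 Plus 2.0 arrays for the authors by a service laboratory. The values used were the deposited probe set intensities, on a linear scale. The labels name PLIER for the summary of probes, whereas the methods name RMA; versions and background settings were not given in the sources used here. No probe-level file was used. Medians per array were alike, so the deposited intensities were taken as log2(intensity + 1) without rescaling, and folds of dim probe sets are understated or unstable on that scale.

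limma 3.58.1 (R 4.3.3) estimated the 6 group means of 54613 probe sets from the 18 arrays together, after leaving out 62 controls, with Benjamini-Hochberg adjustment over all of them. An exact permutation test of 3 against 3 arrays cannot go below p = 0.1 (two-sided), so none was used. The array annotation gave 1 gene for 41091 probe sets, several for 1801 and none for 11721, with symbols updated through the GRCh38.p14 gene table, and a gene was read from its brightest probe set. On simulated data for LH1 minus LHR+ with 54613 probe sets, the rule recovered 13, 26, 32 and 43 of 50 probe sets changed 2-, 3-, 5- and 10-fold, and called 13 of 54413 unchanged ones. The number of arrays limits the precision.

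The comparison, the gene lists and the tests were chosen with earlier results of these data known. Genes were named by rule: the 12 brighter and 6 dimmer genes with the largest rise, all that fell, up to 4 called members of each list, genes the study names, and the 6 genes whose probe sets differed most. Alternatives were another constant, filter, scaling, variance model, test and set of arrays, a replicate block, and other ways to read a gene. The members of 1 list are not reported here.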

Additional observations from a re-analysis of the deposited data

Results flagged for a closer look

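The difference between 1 h and 4 h with LH, which shares the LH1 arrays with the 1 h comparison, passed the same limma rule for 19 of the named genes. On the log2 scale LH4 minus LH1 was -4.64 for EGR1, -3.98 for FOS, -2.46 for EGR3, -1.69 for DUSP1, -1.64 for SPRY4, -1.45 for MYC, -1.28 for CCN1, -1.23 for EDN1 and -1.23 for DUSP5. It was -1.19 for HES1, -1.17 for SPRY2 and -1.09 for CCN2, all of which had risen at 1 h. NR4A3 and ID3, which had risen too, went further up by 2.32 and 1.56. LINC01355 and GNRH1, which had fallen at 1 h, were higher at 4 h by 1.19 and 1.30, and GNRH1 averaged 717 at 4 h and 717 without LH. FBXO32 (-1.19), KIF11 (-1.09) and VAV3 (-1.17) had not been called at 1 h and were lower at 4 h than at 1 h. No test for a single outlying array was run in groups of 3.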

How the results depend on the processing

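Of the 57 genes that rose, 42 kept the call whichever array was left out, 12 kept it in every alternative run, and none changed sign. Leaving out 1 array gave 182 to 231 probe sets up and 18 to 47 down, 49 to 62 genes up and 5 to 12 down, 28 to 30 list genes up and 0 to 2 down, with 6 to 8 genes higher and 18 to 20 lower in LH4 than in LH1. The upper ends of the downward counts (47, 12 and 2) came without LH1 replicate 2. Fitting the 6 arrays alone gave 148 probe sets up, and 30 of the 57 genes kept the call, with 2 AP-1 genes, 6 other immediate-early factors, 3 CREB targets and 0 EGF-like ligands up. Reading a gene as the mean of its probe sets kept 44 of the 57. An analysis of variance of both groups (1 factor), in place of limma with the same thresholds, gave 36 probe sets up and 2 down, 16 genes up and 0 down, and 12 list genes up, with 3928 probe sets at an unadjusted p under 0.05. It kept 14 of the 57 genes. The methods name analysis of variance without its factors, and the Mann-Whitney test, which was not run since 3 against 3 arrays cannot go below p = 0.1 in its exact form. Without the fold threshold there were 92 probe sets down, 100 genes up and 43 down, 49 list genes up and 2 down, and 11 genes higher in LH4. Adding 16 before taking logs, or keeping only probe sets above the median level, gave 10 probe sets down each. Equal array medians, which moved the median difference from 0.02 to -0.08, gave 36 probe sets and 11 genes down. The cause of these changes was not tested. Replicate numbers did not pair the arrays (correlations of -0.01, 0.00 and 0.01 for same-numbered arrays), and a replicate block gave 225 probe sets up and 23 down, and 59 genes up and 7 down. Genes that were not called changed sign as follows: CXCL12 to -0.42 without LH1 replicate 2 (1.35 at most with 1 array left out), TNFSF10 to -0.24 without LHR+ replicate 3 (0.71 at most) and -0.29 as a mean of its probe sets, CALD1 to 0.0041 without LHR+ replicate 3 (-0.10 at the lowest) and 0.62 as such a mean, and ATE1 to 0.040 without LH1 replicate 1 (-0.21 at the lowest) and 0.83 as such a mean. JUND and HMGA2 became 0.12 and 0.16 as such means.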
